A study of Mus musculus with 12 samples.

Results

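Interferon-stimulated genes are the genes that cells switch on after sensing interferon, and 43 of them were followed in bulk RNA-seq of mouse colon and LPMC libraries during colitis. The 43 genes were taken from a list of well-known interferon-induced genes whose symbols were matched to the Ensembl identifiers of the count table, which holds 54109 genes. They comprise 29 targets classed here under type I interferon and 14 classed under interferon gamma. The 12 libraries fall into 4 groups of 3. LPMC KO and LPMC WT libraries hold RNA of LPMC, the usual abbreviation of lamina propria mononuclear cells, from Gpr15l-/- and wild-type mice, and colon KO and colon WT libraries hold RNA of full colon tissue from Gpr15l-/- and wild-type mice. All mice of all 4 groups, WT included, had acute colitis from dextran sulfate sodium (DSS), a chemical that injures the colon epithelium, so no group was free of DSS. Strain, age, sex and the dose and duration of DSS were not given in the sources used here. Nor do the labels state that each library is another animal, and the p-values rest on the differences among libraries, which may in part be technical. Gpr15l encodes a secreted ligand of the chemokine receptor Gpr15, and the comparison of KO with WT asks how its loss alters the inflamed colon and the cells isolated from it.

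Type I interferons bind the receptor chains Ifnar1 and Ifnar2 and act through a complex with Stat2 and Irf9 that binds interferon-stimulated response elements (ISRE) in promoters. Interferon gamma, made mainly by T cells and natural killer cells, binds Ifngr1 and Ifngr2 and acts through gamma-activated sites (GAS) in promoters, and it induces Irf1, which binds ISRE-like elements in turn. The target sets overlap, and the split into classes marks the interferon to which each gene is usually assigned. In the gut, type I and type III interferons act on epithelium and immune cells alike, and interferon gamma induces antigen processing and guanylate-binding proteins in the inflamed mucosa.

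Short stretches of promoter that hold letters of the elements named above are shown for 11 genes. These genes were picked as examples with a match and do not show how the classes differ. Sequences are from RefSeq for build GRCm38.p6, on the strand of the gene. Each stretch keeps 15 bases either side of the matched letters, or ends just before the annotated gene start where that comes sooner. Capitals mark the letters of an ISRE-type match (GAAA, then any 2 bases, then GAAA, or the reverse complement, TTTC, then any 2 bases, then TTTC) or of a GAS-type match (TTCNNNGAA, which reads alike on both strands). The first 6 genes are type I targets and the last 5 are gamma targets.
Isg15 (chr4:156200860-156200911, minus strand): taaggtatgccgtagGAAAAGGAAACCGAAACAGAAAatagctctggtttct
Bst2 (chr8:71537572-71537623, minus strand): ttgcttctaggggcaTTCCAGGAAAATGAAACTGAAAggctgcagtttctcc
Oas1a (chr5:120907526-120907560, minus strand): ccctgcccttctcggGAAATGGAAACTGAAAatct
Ifit1 (chr19:34640770-34640828, plus strand): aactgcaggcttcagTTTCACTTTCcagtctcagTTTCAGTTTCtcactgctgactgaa
Ifit3 (chr19:34583358-34583431, plus strand): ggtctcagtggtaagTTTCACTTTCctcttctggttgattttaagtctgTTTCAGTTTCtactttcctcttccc
Rsad2 (chr12:26456548-26456587, minus strand): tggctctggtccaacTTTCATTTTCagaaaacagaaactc
Gbp2 (chr3:142620589-142620628, plus strand): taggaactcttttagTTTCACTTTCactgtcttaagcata
Igtp (chr11:58199496-58199546, plus strand): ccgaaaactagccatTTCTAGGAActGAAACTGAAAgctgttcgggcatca
Irgm2 (chr11:58214887-58214937, plus strand): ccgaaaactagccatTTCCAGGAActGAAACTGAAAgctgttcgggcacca
Irf1 (chr11:53769909-53769947, plus strand): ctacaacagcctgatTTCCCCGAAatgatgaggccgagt
Psmb8 (chr17:34198083-34198121, plus strand): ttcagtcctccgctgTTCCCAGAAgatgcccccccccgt
In Isg15 the capitals hold 3 ISRE-type matches that share bases. In Bst2 a GAS-type match runs into a pair of overlapping ISRE-type matches. Ifit1 and Ifit3 share the same pair of letter sets, TTTCACTTTC and TTTCAGTTTC, and Gbp2 carries TTTCACTTTC. Igtp and Irgm2, neighbours on chromosome 11, carry stretches of 51 bases that differ at 2 positions, each with a GAS-type and an ISRE-type match. Irf1 and Psmb8 hold a GAS-type match and no ISRE-type match in their windows. The window of Oas1a also holds a GAS-type match, outside the stretch shown. Of the 32 members with a window, 23 held a match of either type, and Oasl1 and Oasl2 held none.

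Windows of 300 bases, from 250 before to 50 after the annotated gene start, were matched for 32 of the 43 genes. An ISRE-type match, on either strand, lay in 12 of 21 windows of type I targets (57.14%) and in 7 of 11 windows of gamma targets (63.64%), beside 3.99% of 27025 genes with a window. A GAS-type match was held by 4 of these 21 type I targets (19.05%) and 6 of these 11 gamma targets (54.55%), beside 9.55% of all genes with a window. The classes thus held ISRE-type letters at similar shares, and the gamma targets held GAS-type letters at the larger share. A match of letters is a description and not a measured binding site.

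Libraries held 45.4 M to 140.7 M counts (1 M is 1000000). The deleted gene, listed as 2610528A11Rik, had 4, 6 and 10 counts in LPMC KO libraries, against 30584, 32405 and 18619 counts in LPMC WT libraries, and 18, 14 and 20 counts in colon KO libraries, against 80362, 15639 and 42849 counts in colon WT libraries, so the genotype labels held in all 12 libraries. Summed markers of T cells (11 genes) reached 58.0 to 255 CPM (counts per 1000000, scaled by TMM factors) in LPMC KO and 99.6 to 141.4 CPM in LPMC WT libraries, against 6.38 to 15.4 CPM in colon KO and 16.6 to 52.8 CPM in colon WT libraries. Summed epithelial markers (8 genes) stood at 8848 to 12013 CPM in LPMC KO and 10754 to 12511 CPM in LPMC WT libraries, against 15078 to 29309 CPM in colon KO and 21658 to 23296 CPM in colon WT libraries. Summed T cell markers were thus higher in every LPMC library than in any colon library, and epithelial markers were high in all 12 libraries. B cell markers (6 genes) did not separate the tissues: they summed to 45.2 to 272 CPM over the 6 LPMC libraries and to 2.24 to 18.5 CPM over 5 colon libraries, but to 781 CPM in colon WT replicate 1. In bulk RNA, fewer cells of a type and less RNA per cell cannot be told apart.

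All 43 genes were detected in all 12 libraries and passed the filter on low counts in every comparison. Compared per length, in TPM (CPM per kilobase of exon, rescaled to a common total in each library) averaged over the 12 libraries, the highest levels were those of Irf1 (402 TPM), an early transcription factor of the interferon gamma response, Gbp2 (332 TPM), a guanylate-binding protein that attacks membranes around pathogens, and Igtp (213 TPM), an immunity-related GTPase. Bst2, or tetherin, which holds budding virus at the cell surface, reached 205 TPM and Isg15, a ubiquitin-like modifier, 175 TPM. The lowest levels were those of Ifi44 (3.14 TPM), Mx2 (4.17 TPM) and Gbp6 (6.44 TPM). Irf1 ranged from 200 to 636 TPM over the 12 libraries and Gbp2 from 55.8 to 1419 TPM, so the order of these genes differed between libraries.

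**Figure D1:**
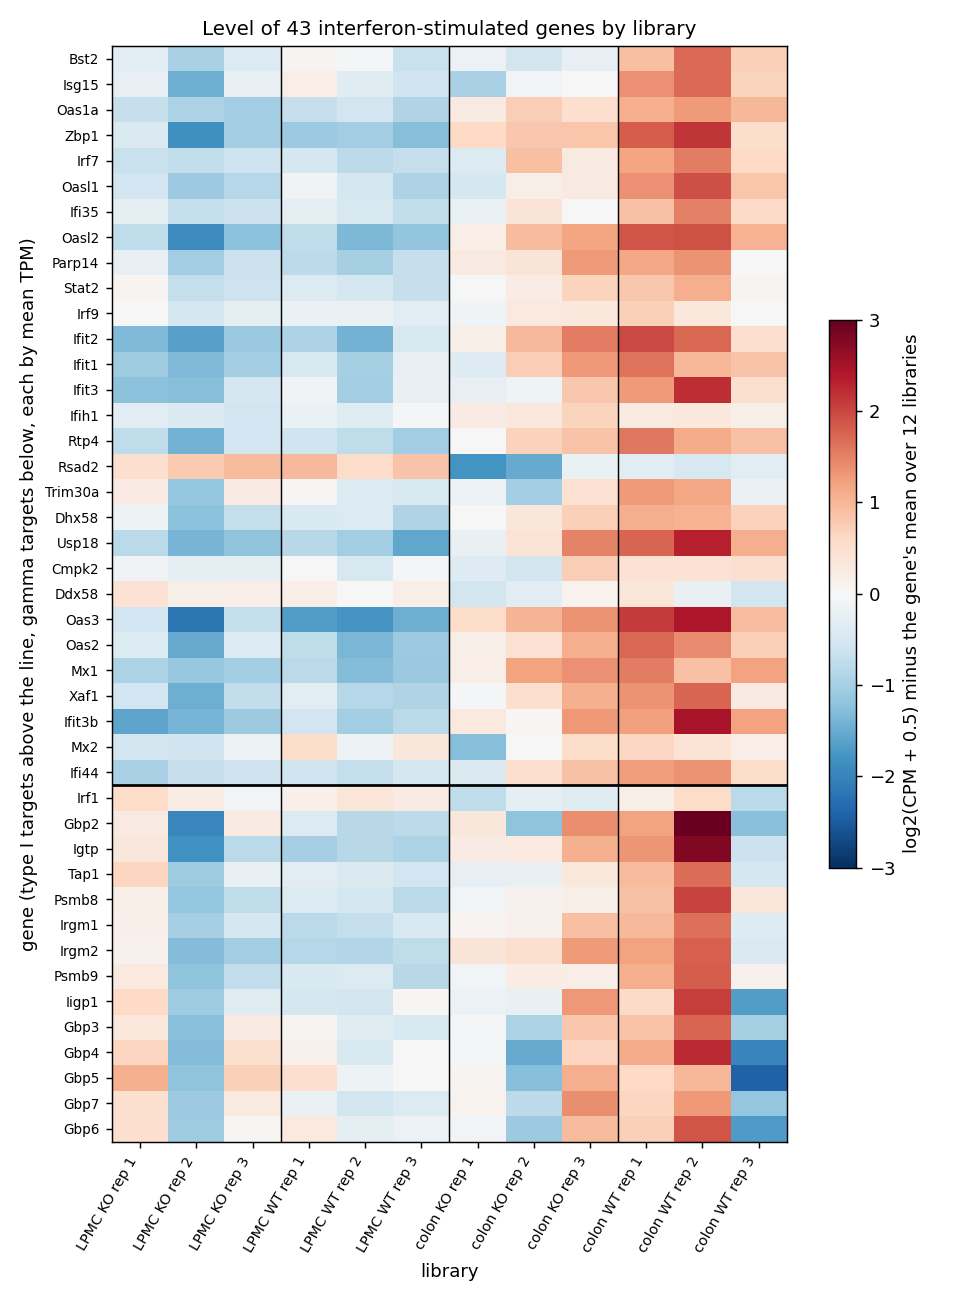
Level of each of the 43 genes in each of the 12 libraries, as log2(CPM + 0.5) minus the gene's mean over the libraries, with type I targets above the line and gamma targets below it. Most type I targets are lower in LPMC than in colon libraries, with Rsad2 the other way round, and most gamma targets are highest in colon WT replicate 2.

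In colon tissue, no interferon-stimulated gene passed the test of KO against WT by edgeR's quasi-likelihood test at a Benjamini-Hochberg adjusted p under 0.05, where the share of all 19303 genes called was 0.00518%, a single gene, the deleted one. Fold changes of the class nevertheless lay to one side: 42 of 43 were below 0, with a median log2 fold change of -0.71 for the 29 type I targets and -0.82 for the 14 gamma targets, beside 0.01 over all genes tested. These genes share their libraries and are not independent of each other. At an unadjusted p under 0.05, 12 of the 43 genes were lower and 0 higher, beside 4.47% lower and 3.32% higher among all genes. In 7 of the 43 genes every KO library lay below every WT library, beside 6.53% of all genes: Isg15, Oas1a, Oasl1, Bst2, Rtp4, Ifi35 and Psmb8. Ifih1, the RNA sensor MDA5, was the exception in direction, with a log2 fold change of 0.14 (SE 0.17).

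Bst2 measured 49.8, 38.2 and 47.2 CPM in colon KO libraries, against 106, 184 and 93.2 CPM in colon WT libraries. All 3 KO libraries lay below all 3 WT libraries, and WT replicate 2 stood highest. The log2 fold change of Bst2 was -1.52 (SE 0.29), with adjusted p at 0.632 in edgeR's quasi-likelihood test and 0.0137 in DESeq2. Isg15 measured 19.5, 36.1 and 38.7 CPM in colon KO libraries, against 100.4, 127 and 61.8 CPM in colon WT libraries, again without overlap. Its log2 fold change was -1.63 (SE 0.36), with adjusted p at 0.632 in edgeR and 0.0367 in DESeq2. Bst2 and Isg15 were the only members that DESeq2 called in this comparison, where it called 0.0725% of all genes as lower. Usp18, the protease that removes Isg15 from its targets, measured 7.37, 11.8 and 25.3 CPM in colon KO libraries, against 30.6, 45.8 and 19.1 CPM in colon WT libraries, and the groups overlapped.

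The oligoadenylate synthetase family is named for enzymes that make short adenylate chains, which switch on an RNA-degrading enzyme. All 5 members of the family, the synthetase-like Oasl1 and Oasl2 among them, had negative fold changes. Oas1a measured 67.8, 94.5 and 79.7 CPM in colon KO libraries, against 119.6, 136 and 112 CPM in colon WT libraries. The groups did not overlap and the spread within each was narrow, with a log2 fold change of -0.62 (SE 0.18). Oasl1 measured 34.4, 55.8 and 60.01 CPM in colon KO libraries, against 129.6, 189.7 and 88.5 CPM in colon WT libraries. Its log2 fold change was -1.46 (SE 0.34), and each KO library lay below each WT library. Ifi35, an interferon-induced leucine zipper protein, measured 31.3, 47.1 and 36.3 CPM in colon KO libraries, against 65.9, 104 and 53.5 CPM in colon WT libraries. The groups of Ifi35 did not overlap either, and the log2 fold change was -0.97 (SE 0.29). Ifit3 is of the IFIT family, in which some proteins bind foreign RNA. It measured 10.5, 11.5 and 22.6 CPM in colon KO libraries, against 31.1, 59.98 and 18.0 CPM in colon WT libraries. KO replicate 3 exceeded WT replicate 3, and the log2 fold change of Ifit3 was -1.31 (SE 0.49). For Oas1a, Oasl1, Ifi35 and Ifit3 the adjusted p by edgeR was 0.632.

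**Figure D2:**
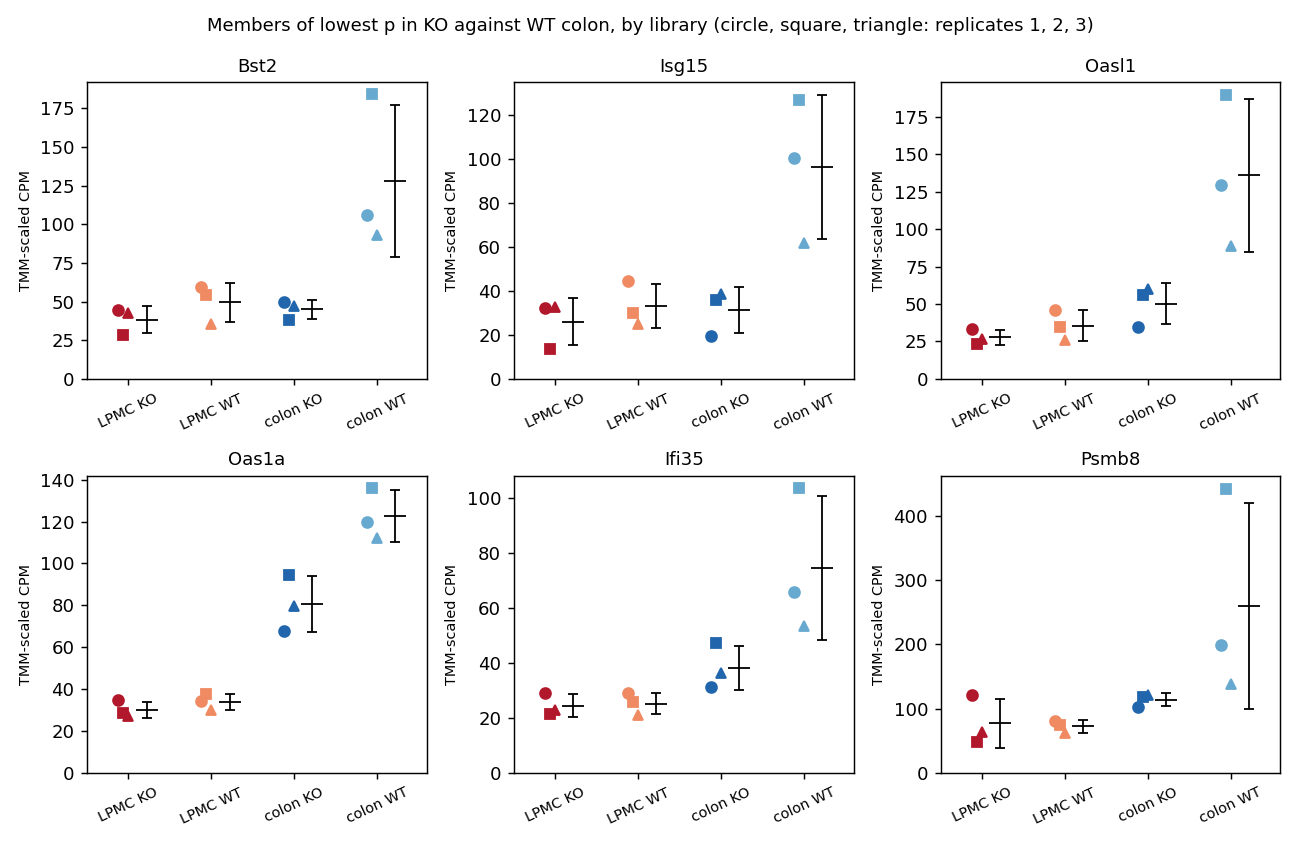
TMM-scaled CPM of Bst2, Isg15, Oasl1, Oas1a, Ifi35 and Psmb8 in each library, with the mean and SD of 3 libraries beside each group. Every colon KO point lies below every colon WT point in all 6 panels, and colon WT replicate 2 (square) is the highest of its group in each.

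Among gamma targets, the antigen-processing genes had the lowest p in colon. Psmb8, a catalytic subunit of the immunoproteasome, measured 102, 118 and 121 CPM in colon KO libraries, against 199.6, 442 and 139 CPM in colon WT libraries. KO and WT did not overlap, and the log2 fold change was -1.21 (SE 0.41). Psmb9, the partner subunit, measured 78.1, 97.8 and 96.1 CPM in colon KO libraries, against 177, 294 and 90.8 CPM in colon WT libraries, where WT replicate 3 fell among the KO libraries. Tap1, which carries peptides to MHC class I, measured 162, 164 and 238 CPM in colon KO libraries, against 371, 607 and 132 CPM in colon WT libraries, and WT replicate 3 was the lowest of the 6. The log2 fold changes were -1.06 (SE 0.40) for Psmb9 and -0.995 (SE 0.50) for Tap1. Igtp measured 118, 123 and 210.3 CPM in colon KO libraries, against 249.7, 687 and 63.5 CPM in colon WT libraries. Its groups overlapped, with the highest and the lowest value both in WT, and the log2 fold change was -1.17 (SE 0.74). Adjusted p by edgeR lay at 0.632 for Psmb8 and Psmb9, 0.641 for Tap1 and 0.683 for Igtp. Psmb9 and Tap1 overlap on opposite strands, and exons of Igtp and Irgm2 overlap on the same strand, so reads of such a pair may not be fully separated, since the strand setting of the counting is not given.

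Without colon WT replicate 2 the median log2 fold change of gamma targets was -0.06, while that of the type I targets stayed between -0.97 and -0.45 whichever library was left out. Markers of T cells lay on the same side in colon, with 11 of 11 below 0, 0 called by edgeR and a median log2 fold change of -1.32, and their summed levels of 6.38 to 15.4 CPM in KO and 16.6 to 52.8 CPM in WT libraries did not overlap. Summed macrophage markers (12 genes) ranged from 72.7 to 418 CPM in colon KO and 219 to 481 CPM in colon WT libraries, and B cell markers from 2.24 to 18.5 CPM in KO and 3.55 to 781 CPM in WT libraries. Summed neutrophil markers (8 genes) stood at 261 to 458 CPM in colon KO and 547 to 784 CPM in colon WT libraries, and these sums did not overlap. Of the single genes, 7 of 8 were below 0, with a median log2 fold change of -0.48, but only 1 of 8 had all KO libraries below all WT libraries. The mean log2(CPM + 0.5) over the 8 genes overlapped, at 3.98, 1.48 and 3.98 in colon KO and 3.92, 4.62 and 3.15 in colon WT libraries. Smooth muscle markers (8 genes) summed to 845 to 2203 CPM in colon KO and 334 to 1349 CPM in colon WT libraries, and fibroblast markers (6 genes) to 214 to 999.6 CPM in colon KO and 251 to 487 CPM in colon WT libraries, with 8 of 8 and 6 of 6 above 0. Within colon KO, replicate 2 was the library lowest in summed macrophage and fibroblast markers and highest in smooth muscle markers. Epithelial markers reached 15698, 29309 and 15078 CPM in colon KO replicates 1, 2 and 3. None of these markers was at 0 in any library, and their part in the result was not tested.

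In LPMC, fold changes of KO over WT lay on both sides of 0, with 21 of 43 members above and 22 below. No member passed edgeR's quasi-likelihood test, where 0.0103% of 19426 genes were called. With 3 libraries per group, a lack of calls does not show that levels were equal. The median log2 fold change was -0.07 for type I targets and 0.24 for gamma targets, beside -0.004 over all genes. Unadjusted p was under 0.05 and the gene lower for 2 of 43 members, beside 1.44% of all genes, and 3 of 43, Ifit1, Ifit3b and Mx2, had all KO libraries below all WT libraries, beside 3.75% of all genes. The IFIT genes, a family in which some proteins bind foreign RNA and hinder its translation, were all 4 below 0. Of the gamma targets, 13 of 14 were above 0. Markers of several immune cell types lay on the same side in LPMC, with 0 called by edgeR: above 0 were 7 of 8 neutrophil markers (median log2 fold change 1.81), 11 of 12 macrophage markers (0.91), 10 of 11 T cell markers (0.64), 8 of 8 markers of natural killer and cytotoxic cells (0.52) and 6 of 6 B cell markers (0.67). Summed neutrophil markers measured 93.6 to 632 CPM in LPMC KO and 99.2 to 183 CPM in LPMC WT libraries, and macrophage markers 181 to 616 CPM in KO and 196 to 365 CPM in WT libraries, overlapping in both. Smooth muscle markers were below 0 in 8 of 8 and plasma cell markers in 5 of 5. The part of these markers in the result was not tested.

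Mx2, of the Mx family of antiviral GTPases, is listed as a polymorphic pseudogene in the annotation used, GENCODE M21. It measured 3.15, 3.04 and 4.30 CPM in LPMC KO libraries, against 7.36, 4.32 and 6.26 CPM in LPMC WT libraries. The highest KO library nearly met the lowest WT library, and the log2 fold change was -0.78 (SE 0.28). Ifit1 measured 11.1, 9.19 and 11.4 CPM in LPMC KO libraries, against 17.1, 11.6 and 19.9 CPM in LPMC WT libraries. Here too KO replicate 3 and WT replicate 2 were adjacent without overlap, and the log2 fold change was -0.62 (SE 0.23). Ifit3b measured 1.05, 1.28 and 1.71 CPM in LPMC KO libraries, against 2.61, 1.76 and 2.15 CPM in LPMC WT libraries, with a log2 fold change of -0.69 (SE 0.31). Ifit3b is nearly identical in sequence to Ifit3, so reads may be split between them. Ifit3 itself measured 5.13, 4.88 and 8.72 CPM in LPMC KO libraries, against 11.7, 5.89 and 10.7 CPM in LPMC WT libraries, and the groups overlapped. Its log2 fold change was -0.59 (SE 0.36), and that of Ifit2, which also overlapped, was -0.47 (SE 0.27). Ifih1 measured 51.4, 48.2 and 43.7 CPM in LPMC KO libraries, against 56.1, 50.2 and 62.2 CPM in LPMC WT libraries, a log2 fold change of -0.24 (SE 0.11) with overlapping groups. In edgeR's quasi-likelihood test these 6 genes had an adjusted p of 0.998.

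Gbp7, Tap1, Irgm1 and Gbp2 were the gamma targets of lowest p in LPMC, and all 4 had overlapping groups. Gbp7, a guanylate-binding protein, measured 41.0, 13.4 and 35.9 CPM in LPMC KO libraries, against 25.2, 19.7 and 21.7 CPM in LPMC WT libraries. Gbp2 measured 216, 45.7 and 215 CPM in LPMC KO libraries, against 135, 102 and 105 CPM in LPMC WT libraries. In both genes KO replicates 1 and 3 lay above all WT libraries and KO replicate 2 below them. The log2 fold changes were 0.44 (SE 0.40) for Gbp7, 0.48 (SE 0.56) for Gbp2, 0.38 (SE 0.40) for Tap1 and 0.25 (SE 0.29) for Irgm1, with adjusted p of 0.998 by edgeR. Tap1 measured 298, 91.5 and 163 CPM in LPMC KO libraries, against 154, 142 and 128 CPM in LPMC WT libraries. Irgm1, an immunity-related GTPase that regulates the others of its family, measured 167, 74.9 and 104 CPM in LPMC KO libraries, against 86.4, 91.9 and 110.5 CPM in LPMC WT libraries. The sign of the gamma median in LPMC rested on KO replicate 1: without that library the median was -0.15, and without KO replicate 2 it was 0.53. The type I median likewise turned to 0.02 without KO replicate 2 or without WT replicate 1.

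**Figure D3:**
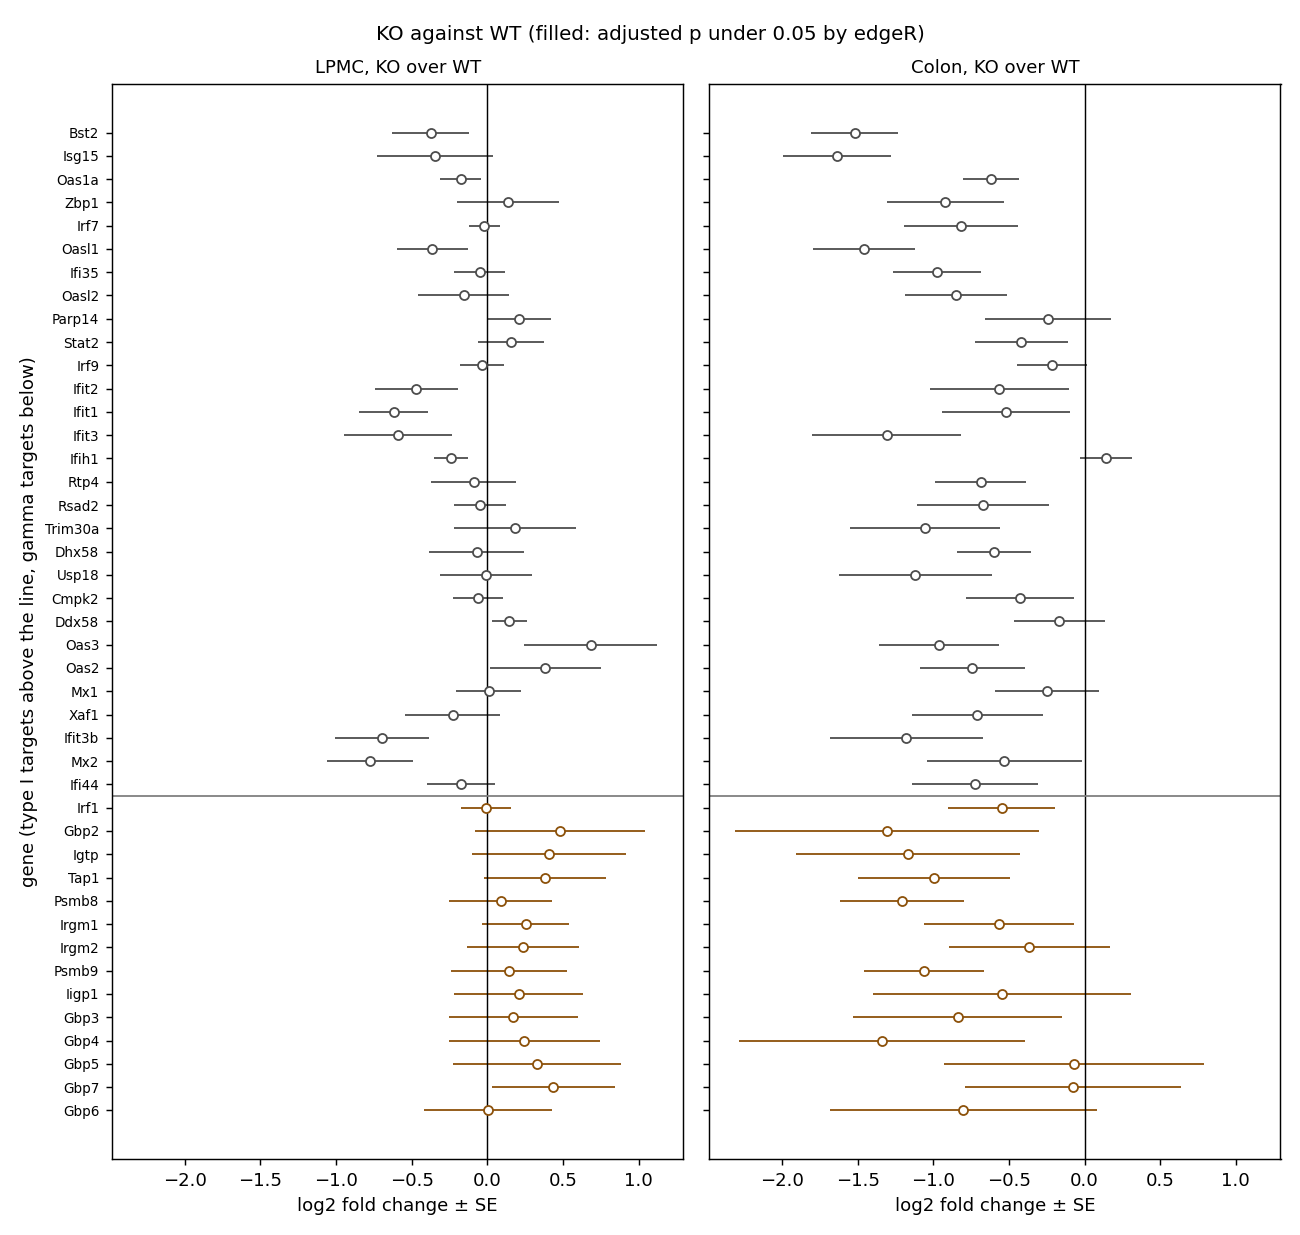
Log2 fold change of KO over WT with its SE for each of the 43 genes, in LPMC on the left and in colon on the right, with type I targets above the line. No point is filled because no member passed the adjusted threshold, 13 of 14 gamma targets lie above 0 in LPMC, and 42 of 43 genes lie below 0 in colon.

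The effect of the knockout in LPMC was also set against its effect in colon in a single fit of all 12 libraries. No member was called by edgeR's quasi-likelihood test, and neither was any other gene of the 20989 tested (0.0%). The difference was above 0, meaning a less negative or a positive effect in LPMC, for 40 of 43 members, and at an unadjusted p under 0.05 for 6 of 43, beside 2.69% of all genes above 0 at that level. DESeq2 called 3 genes in all (0.0143%) and 0 members. Ifih1, Mx2 and Ifit1 had differences below 0. For type I targets the differences of lowest p were those of Bst2, 1.14 (SE 0.40), Ifi35, 0.92 (SE 0.35), Oas3, 1.63 (SE 0.63), Oasl1, 1.08 (SE 0.43), Isg15, 1.27 (SE 0.55), and Oas2, 1.11 (SE 0.53), all on the log2 scale. Oas3, the largest oligoadenylate synthetase, measured 11.4, 3.45 and 10.4 CPM in LPMC KO and 5.10, 4.72 and 5.91 CPM in LPMC WT libraries, and 25.5, 35.8 and 44.4 CPM in colon KO and 75.3, 94.6 and 33.2 CPM in colon WT libraries. Oas2, of the same family, measured 9.76, 4.31 and 9.84 CPM in LPMC KO and 7.57, 4.78 and 5.99 CPM in LPMC WT libraries, and 14.9, 18.3 and 28.9 CPM in colon KO and 44.5, 36.1 and 22.04 CPM in colon WT libraries. In neither gene did KO and WT separate within a tissue. For gamma targets the differences of lowest p were 1.29 (SE 0.58) for Psmb8, 1.19 (SE 0.60) for Psmb9, 1.36 (SE 0.71) for Tap1 and 1.57 (SE 1.01) for Igtp. The adjusted p of all these genes was 0.902.

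Setting LPMC against colon within a genotype gave the called differences, and they were mostly in the type I class. In KO, 17 of 43 members were lower in LPMC and 1 was higher at an adjusted p under 0.05 by edgeR's quasi-likelihood test, where 13.6% of 20989 genes were called lower and 14.5% higher. In WT, 29 of 43 were lower and 1 higher, where 17.5% of genes were called lower and 17.8% higher. In KO, 21 of 43 members had every LPMC library below every colon library, beside 23.5% of all genes, and in WT 30 of 43 did, beside 24.0%. By class, 17 of 29 type I targets were lower in KO and 24 of 29 in WT, and 0 of 14 gamma targets were lower in KO and 5 of 14 in WT. The 5 were Psmb8, Psmb9, Igtp, Irgm1 and Irgm2, and no guanylate-binding protein was called in either genotype. Median log2 fold changes of LPMC over colon were -1.25 in KO and -1.83 in WT for type I targets and -0.51 in KO and -1.36 in WT for gamma targets, beside 6e-05 in KO and 3e-04 in WT over all genes. All 17 genes lower in KO were among the 29 lower in WT, a share of 58.6% of the WT list and the whole of the KO list. The 12 called in WT alone, Bst2, Ifi35, Ifit3, Igtp, Irf9, Irgm1, Irgm2, Isg15, Oasl1, Psmb8, Psmb9 and Stat2, are not shown to differ between genotypes, since 0 members were called in the test of that difference.

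Oas1a had the lowest p in both genotypes. It measured 34.5, 28.8 and 27.0 CPM in LPMC KO libraries, against 67.8, 94.5 and 79.7 CPM in colon KO libraries, and 34.3, 37.4 and 29.8 CPM in LPMC WT libraries, against 119.6, 136 and 112 CPM in colon WT libraries. Each LPMC library lay below each colon library, with log2 fold changes of -1.42 (SE 0.16, adjusted p 2e-04 by edgeR) in KO and -1.86 (SE 0.16, adjusted p 4.2e-05) in WT. Mx1, the nuclear Mx GTPase of mice, measured 5.30, 4.60 and 4.93 CPM in LPMC KO libraries, against 12.4, 25.5 and 28.4 CPM in colon KO libraries. In WT it measured 5.91, 4.07 and 4.70 CPM in LPMC libraries, against 32.1, 20.4 and 25.6 CPM in colon libraries. The LPMC values were alike in the 2 genotypes and the log2 fold changes were -2.16 (SE 0.31, adjusted p 0.000728 by edgeR) in KO and -2.41 (SE 0.31, adjusted p 0.000362) in WT. Oasl2 measured 47.5, 21.6 and 34.1 CPM in LPMC KO libraries, against 93.0, 158 and 184 CPM in colon KO libraries, and 47.5, 31.7 and 35.4 CPM in LPMC WT libraries, against 303, 305 and 167 CPM in colon WT libraries. Its groups did not overlap, with log2 fold changes of -2.08 (SE 0.35) in KO and -2.76 (SE 0.36) in WT and adjusted p of 0.00192 and 0.000394 by edgeR.

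Among the other type I targets of lowest p, Ifit2 measured 13.2, 10.4 and 15.2 CPM in LPMC KO libraries, against 37.9, 66.8 and 97.5 CPM in colon KO libraries, giving a log2 fold change of -2.38, with SE 0.43 and adjusted p 0.00287 by edgeR. Ifih1 measured 51.4, 48.2 and 43.7 CPM in LPMC KO libraries, against 76.7, 80.5 and 103 CPM in colon KO libraries, a smaller but tight difference of -0.86 (SE 0.14, adjusted p 0.00174 by edgeR). Both genes separated completely. In WT, Oas3 measured 5.10, 4.72 and 5.91 CPM in LPMC libraries, against 75.3, 94.6 and 33.2 CPM in colon libraries, and its log2 fold change, -3.69 (SE 0.49, adjusted p 0.000455 by edgeR), was the largest decrease of any member in either genotype. Rtp4, an interferon-induced receptor transporter protein, measured 9.11, 8.07 and 6.64 CPM in LPMC WT libraries, against 43.6, 31.2 and 26.3 CPM in colon WT libraries, giving a log2 fold change of -2.09, with SE 0.31 and adjusted p 0.000754 by edgeR. Neither gene overlapped between tissues. Some families were called lower as a whole in WT: all 4 IFIT genes, all 5 genes of the oligoadenylate synthetase family and Isg15 with Usp18. All 3 transcription factors Irf7, Irf9 and Stat2 were called lower too. In KO, 3 of 4 IFIT genes, 4 of 5 genes of the oligoadenylate synthetase family and 1 of the 3 transcription factors, Irf7, were called lower. Other families were split or not called. In each genotype 1 of 2 Mx genes, 2 of the 3 RNA sensors Ddx58, Ifih1 and Dhx58 and 0 of 6 guanylate-binding proteins were called lower.

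Isg15 and Bst2 were not called between tissues in KO, where both were about as low in colon as in LPMC. Isg15 measured 32.1, 13.7 and 32.6 CPM in LPMC KO libraries, against 19.5, 36.1 and 38.7 CPM in colon KO libraries, and Bst2 44.5, 28.3 and 42.3 CPM in LPMC KO libraries, against 49.8, 38.2 and 47.2 CPM in colon KO libraries. The log2 fold changes were -0.27 (SE 0.39, adjusted p 0.642 by edgeR) for Isg15 and -0.23 (SE 0.28, adjusted p 0.571) for Bst2 in KO, and -1.54 (SE 0.40, adjusted p 0.0125) and -1.37 (SE 0.29, adjusted p 0.0046) in WT.

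Rsad2, or viperin, an antiviral enzyme that makes a chain-terminating nucleotide, went against its class. It measured 32.0, 39.1 and 43.9 CPM in LPMC KO libraries, against 6.07, 7.52 and 19.3 CPM in colon KO libraries, and 44.6, 33.0 and 41.1 CPM in LPMC WT libraries, against 18.0, 15.9 and 17.9 CPM in colon WT libraries. Every LPMC library exceeded every colon library, with log2 fold changes of 1.80 (SE 0.36, adjusted p 0.00488 by edgeR) in KO and 1.20 (SE 0.36, adjusted p 0.0243) in WT. The WT call was lost in 4 of the 12 fits that left out a library, those without colon WT replicates 2 or 3 or without LPMC WT replicates 1 or 3. Ddx58, the RNA sensor RIG-I, was the other type I target above 0 in both genotypes, with log2 fold changes of 0.51 (SE 0.24) in KO and 0.21 (SE 0.24) in WT, and was not called.

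Of the gamma targets, Psmb8 measured 80.2, 74.5 and 61.6 CPM in LPMC WT libraries, against 199.6, 442 and 139 CPM in colon WT libraries, giving a log2 fold change of -1.85, with SE 0.42 and adjusted p 0.00689 by edgeR. Psmb9 measured 60.2, 62.4 and 46.7 CPM in LPMC WT libraries, against 177, 294 and 90.8 CPM in colon WT libraries, giving a log2 fold change of -1.73, with SE 0.43 and adjusted p 0.011 by edgeR. Both immunoproteasome genes separated by tissue in WT. Irgm2, an immunity-related GTPase, measured 94.9, 35.0 and 41.9 CPM in LPMC KO libraries, against 113, 120.5 and 209 CPM in colon KO libraries, and 47.4, 46.5 and 50.9 CPM in LPMC WT libraries, against 199, 299 and 63.5 CPM in colon WT libraries. Its groups did not overlap, yet the call was made in WT only, with log2 fold changes of -1.36 (SE 0.52, adjusted p 0.0739 by edgeR) in KO and -1.96 (SE 0.53, adjusted p 0.0167) in WT, and this difference between genotypes was not called. Irgm1 measured 167, 74.9 and 104 CPM in LPMC KO libraries, against 159, 166 and 281 CPM in colon KO libraries, which overlapped, with a log2 fold change of -0.81 (SE 0.45). Irf1 measured 767, 611 and 497 CPM in LPMC KO libraries, against 305, 432 and 407 CPM in colon KO libraries. It was the gamma target higher in every LPMC KO library than in every colon KO library, at a log2 fold change of 0.71 (SE 0.29) that was not called (adjusted p 0.0914 by edgeR).

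**Figure D4:**
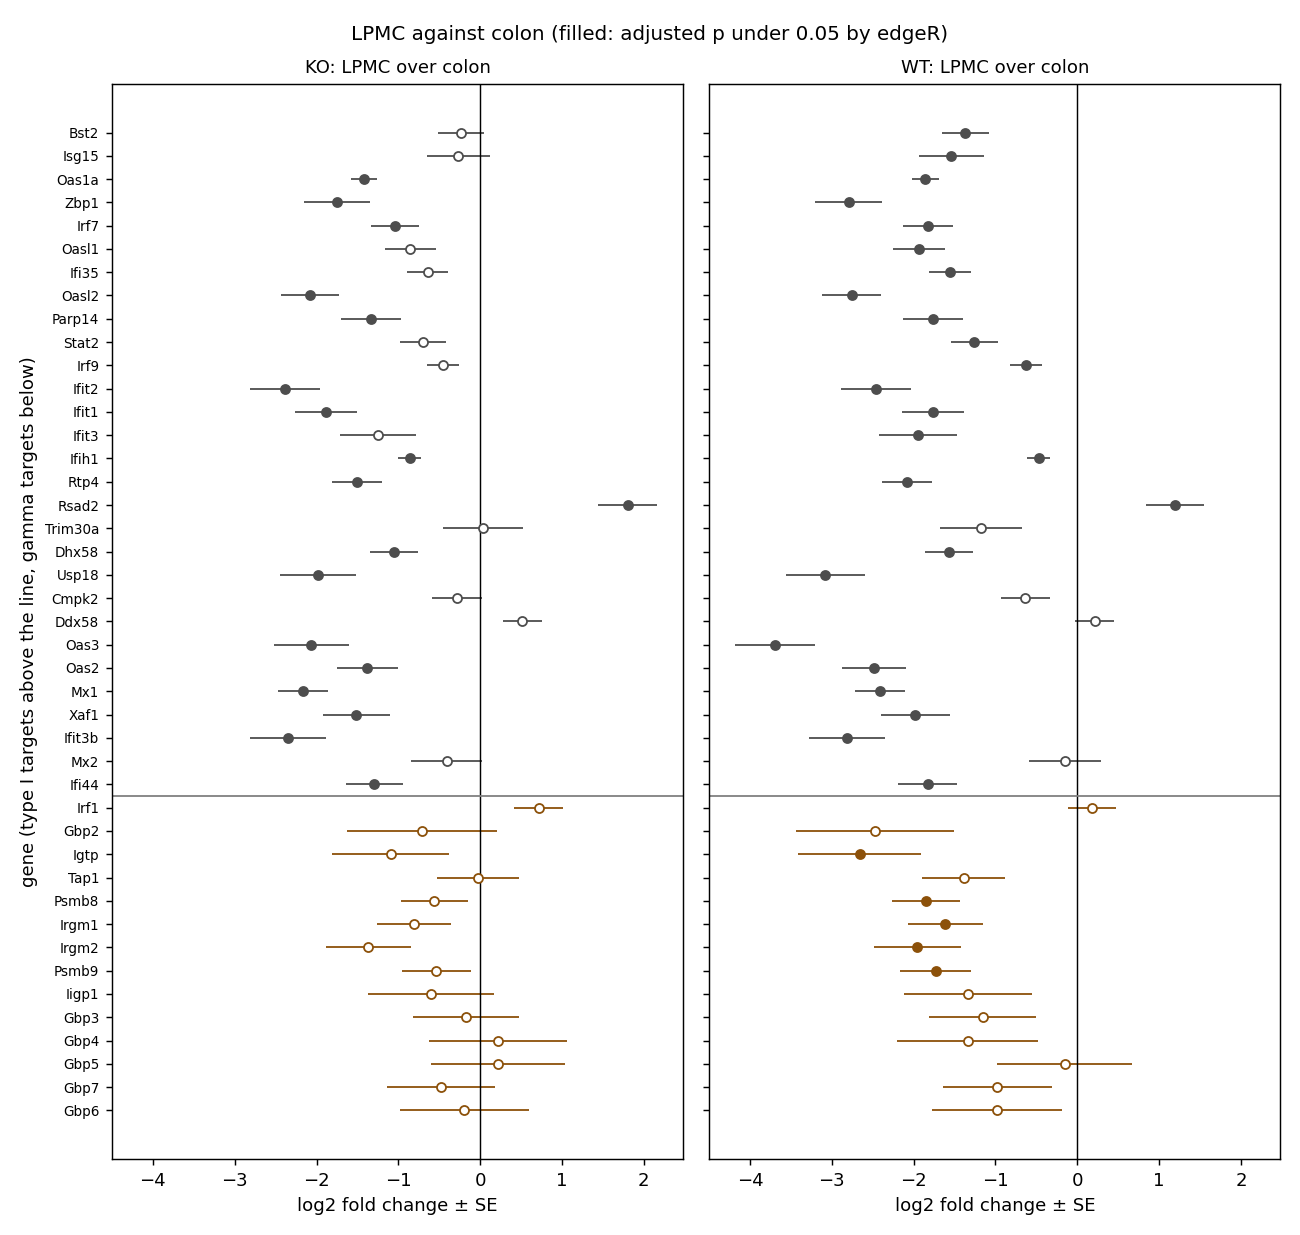
Log2 fold change of LPMC over colon with its SE for each of the 43 genes, in KO on the left and in WT on the right, with filled points for an adjusted p under 0.05 and type I targets above the line. The 17 genes called lower in KO are all type I targets, 29 are called lower in WT, and Rsad2 is the gene called higher in both.

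Leaving out a library kept 11 of the 17 KO calls and 22 of the 24 type I calls of WT in every one of the 12 fits, and 2 of the 5 gamma calls of WT, Psmb8 and Psmb9. The KO calls lost were those of Ifi44, Oas2, Irf7, Xaf1, Dhx58 and Parp14, in 2 to 4 fits each, without colon KO replicates 2 or 3 or an LPMC KO replicate. In WT the calls of Irgm1 and Irgm2 were lost without colon WT replicate 2 or LPMC WT replicates 1 or 2, and that of Igtp also without LPMC WT replicate 3. Those of Ifih1 and Irf9 were lost without colon WT replicates 1 or 2 or LPMC WT replicates 1 or 2, and that of Irf9 also without LPMC WT replicate 3. The gamma median in KO turned to 0.14 without colon KO replicate 3. With the replicate number within genotype as a block, 25 members were called lower in WT and 17 in KO: Ifih1 (adjusted p 0.059), Irf9 (0.0522), Irgm1 (0.0616), Igtp (0.074) and Irgm2 (0.0562) were lost in WT by edgeR's quasi-likelihood test, and Trim30a was gained (0.0213). Epithelial markers, of which 5 of 8 in KO and 6 of 8 in WT were called lower in LPMC, had median log2 fold changes of -0.91 in KO and -0.86 in WT, and T cell markers, of which 11 of 11 in KO and 6 of 11 in WT were called higher, had medians of 3.91 in KO and 2.15 in WT. Fibroblast markers had medians of 2.23 in KO and 3.03 in WT, endothelial markers 2.00 and 2.29, and plasma cell markers 3.74 and 3.02. Smooth muscle markers had medians of -1.15 in KO and 0.11 in WT. The lists named here other than smooth muscle thus moved alike with the tissue comparison in both genotypes. No marker of these lists was at 0 in any library, and their part in the result was not tested.

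The classes also differed in how far libraries of one group stood apart, which is described here without a test. In colon WT the highest library exceeded the lowest by a median of 6.26-fold over the gamma targets, up to 19.1-fold for Gbp4, and by 1.94-fold over the type I targets. Replicate 2 was the highest and replicate 3 the lowest of colon WT for 14 of 14 gamma targets. In colon KO the medians were 2.38-fold for gamma targets and 1.99-fold for type I targets. Among LPMC KO libraries they were 3.12-fold and 1.57-fold, with replicate 1 the highest for 14 of 14 gamma targets and replicate 2 the lowest for 13 of 14. In LPMC KO, replicate 2 was also lowest in several summed immune markers. In replicates 1, 2 and 3 those of T cells reached 255, 58.0 and 171 CPM. Natural killer and cytotoxic cell markers reached 177, 45.8 and 124 CPM and B cell markers 272, 45.2 and 206 CPM. Neutrophil markers reached 632, 93.6 and 486 CPM and macrophage markers 538, 181 and 616 CPM. Replicate 2 was lowest outside the immune lists too, in fibroblast markers (3674, 973 and 3691 CPM) and smooth muscle markers (471, 288 and 672 CPM). Summed plasma cell markers had another order (864, 1531 and 3175 CPM), as had plasmacytoid dendritic cell markers (577, 1077 and 437 CPM). The latter order held for the sum only. The mean log2 level over the plasmacytoid dendritic cell markers was 4.10, 3.39 and 3.83 in LPMC KO replicates 1, 2 and 3. By that measure replicate 2 was lowest for these markers too. In colon WT replicates 1, 2 and 3, T cell markers reached 52.8, 16.8 and 16.6 CPM. There B cell markers reached 781, 3.55 and 15.5 CPM and natural killer and cytotoxic cell markers 8.49, 16.4 and 5.19 CPM. The part of these markers in the spread was not tested. LPMC WT libraries stood closest, at 1.32-fold for gamma and 1.43-fold for type I targets.

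Gbp2 is an example of this spread. It measured 229, 77.5 and 474 CPM in colon KO libraries, against 419, 1403 and 75.5 CPM in colon WT libraries, so that a KO and a WT library held nearly the same lowest value. The mean log2(CPM + 0.5) over the 14 gamma targets was 6.82, 5.22 and 6.21 in LPMC KO libraries and 6.11, 5.91 and 5.96 in LPMC WT libraries, and 6.36, 5.93 and 7.18 in colon KO libraries and 7.26, 8.20 and 5.42 in colon WT libraries. For the 29 type I targets it was 4.24, 3.70 and 4.16 in LPMC KO libraries and 4.36, 4.04 and 4.11 in LPMC WT libraries, and 4.57, 5.02 and 5.47 in colon KO libraries and 5.93, 6.05 and 5.27 in colon WT libraries. Colon WT replicate 3 was thus among the lowest libraries for gamma targets and still above all LPMC libraries for type I targets.

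**Figure D5:**
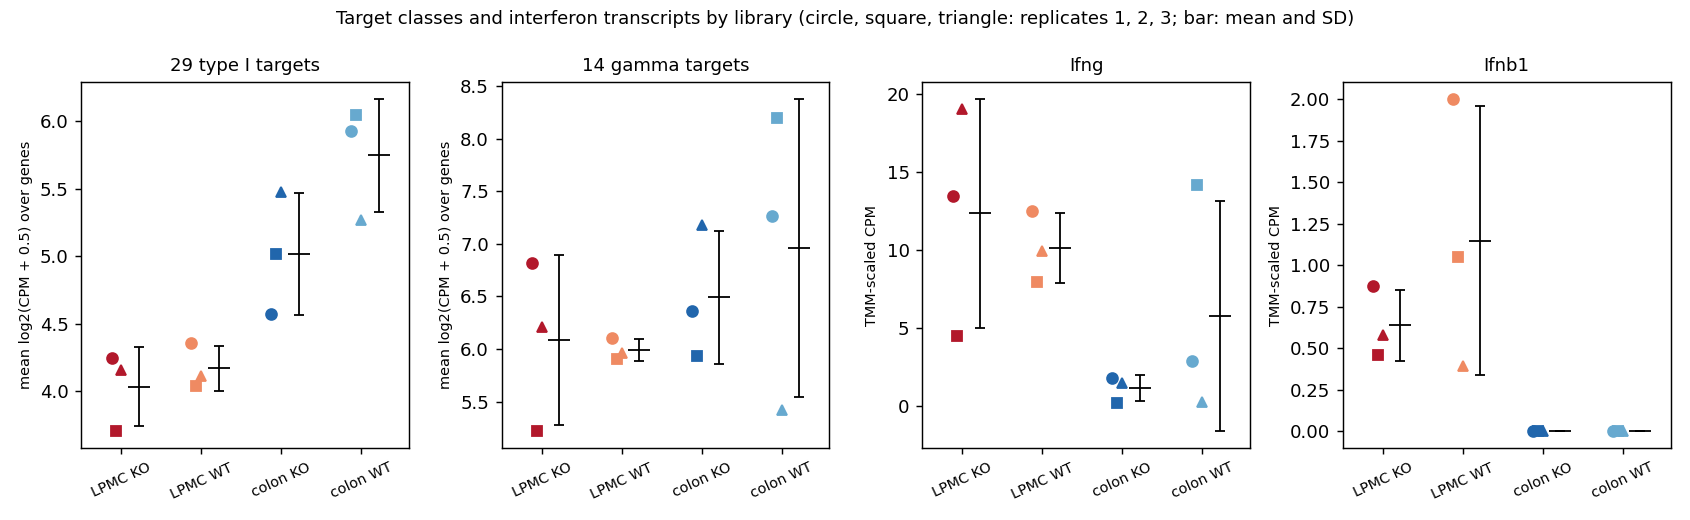
Mean log2(CPM + 0.5) over the 29 type I and over the 14 gamma targets, and TMM-scaled CPM of Ifng and Ifnb1, in each library, with the mean and SD of 3 libraries beside each group. Type I targets lie lower in every LPMC library than in any colon library, gamma targets spread most in colon WT, and Ifnb1 is at 0 in all colon libraries.

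The interferons themselves were sparse. Ifng, which encodes interferon gamma, measured 13.5, 4.52 and 19.1 CPM in LPMC KO libraries and 12.5, 7.97 and 9.95 CPM in LPMC WT libraries, and 1.80, 0.196 and 1.49 CPM in colon KO libraries and 2.91, 14.2 and 0.258 CPM in colon WT libraries. The colon WT library highest in Ifng, replicate 2, was the one highest in the gamma targets, and replicate 3 was lowest in both. In LPMC WT, replicate 1 was highest and replicate 2 lowest in Ifng and in the gamma mean. The KO groups differed: in colon KO, Ifng was highest in replicate 1 and the gamma mean in replicate 3. In LPMC KO, Ifng was highest in replicate 3 and the gamma mean in replicate 1. Replicate 2 was lowest in both measures in either KO group. Ifng did not pass edgeR's quasi-likelihood test in any comparison: the log2 fold change of KO over WT was 0.29 (SE 0.51, adjusted p 0.998) in LPMC and -2.32 (SE 1.31, adjusted p 0.666) in colon, and that of LPMC over colon was 3.40 (SE 1.18, adjusted p 0.0537) in KO and 0.81 (SE 1.08, adjusted p 0.585) in WT. Ifnb1, which encodes interferon beta, had 120, 38 and 44 counts in LPMC KO libraries and 210, 104 and 20 counts in LPMC WT libraries, and 0 counts in all 6 colon libraries. With a floor of 3 counts over the colon group it was at least 64.5-fold higher in LPMC in KO and at least 74.8-fold higher in WT, and edgeR called it in both, with adjusted p of 0.00224 and 0.00157. The type I targets other than Rsad2 that were called were lower in LPMC, where Ifnb1 was detected. No other listed interferon gene exceeded 16 counts in a library.

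Of the receptor and signalling genes fixed as a list of 11, 0 were called between KO and WT in either tissue. Ifnlr1, the receptor chain specific to type III interferon, measured 11.1, 13.8 and 10.4 CPM in LPMC KO and 12.1, 13.1 and 14.2 CPM in LPMC WT libraries, and 36.2, 44.7 and 35.3 CPM in colon KO and 42.8, 44.1 and 45.6 CPM in colon WT libraries. It was lower in LPMC on the log2 scale, at -1.72 (SE 0.16, adjusted p 5.4e-05 by edgeR) in KO and -1.75 (SE 0.16, adjusted p 5.09e-05) in WT. Ifnar1 rose in LPMC, with log2 fold changes of 0.77 (SE 0.21, adjusted p 0.019 by edgeR) in KO and 0.70 (SE 0.21, adjusted p 0.0232) in WT.

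Further targets outside the 43 were taken from lists of the same kind. Of 29 further type I targets tested, 10 were lower in LPMC than in colon in KO (34.5%, beside 13.6% of all genes) and 14 in WT (48.3%, beside 17.5%), with 0 higher, by edgeR's quasi-likelihood test. Parp12, an interferon-induced ADP-ribosyltransferase, measured 51.6, 38.5 and 39.9 CPM in LPMC KO and 45.2, 48.3 and 43.5 CPM in LPMC WT libraries, and 179, 211 and 213 CPM in colon KO and 264, 223 and 194 CPM in colon WT libraries. Of 27 further gamma targets, 3 were lower and 1 higher in KO, where the 11.1% lower is below the 13.6% of all genes and 14.5% of all genes were higher, and 9 were lower in WT (33.3%, beside 17.5%) and 0 higher. The higher gene was Icam1, an adhesion molecule, at 168, 79.8 and 169 CPM in LPMC KO libraries, against 33.9, 5.16 and 44.2 CPM in colon KO libraries (log2 fold change 2.32, SE 0.77, adjusted p 0.0446 by edgeR). Between KO and WT in colon, 27 of 27 further gamma targets and 25 of 29 further type I targets lay below 0, with medians of -0.76 and -0.34, and 0 of either were called.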

How the data were processed

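The authors deposited unnormalized counts of reads, in whole numbers, for each Ensembl gene and 12 libraries. Per the labels' protocols, stranded mRNA libraries were sequenced on an Illumina instrument. STAR and build GRCm38 (mm10) are named per the submitters' processing notes, with versions, counting tool and strand setting not given in the sources used here. Of counts from 1 to 20, 66.6% to 76.6% were even, so mates may have been counted separately, and counting error is then understated. Identifiers were matched to GENCODE M21 (54042 of 54109). The members, classes and lists were chosen with earlier results of these data known.

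Libraries held 45.4 M to 140.7 M counts (1 M is 1000000). edgeR 4.0.16 in R 4.3.3 was run with TMM factors, filterByExpr (minimum count 10) and the robust quasi-likelihood test, adjusted by Benjamini-Hochberg over all genes tested, with calls at 0.05. KO was compared with WT in a fit of the 6 libraries of a tissue, and LPMC with colon, and the difference of KO effects, in a fit of all 12. CPM values use TMM factors of all 12 libraries, and TPM uses the summed exon length of M21. The fits were tested on simulated data with 200 changed genes. Values in every library are given for the 6 type I and 4 gamma targets of lowest p in comparisons of KO with WT and for 5 and 3 in comparisons of tissues. Alternatives were DESeq2 1.42.0, its size factors, limma 3.58.1 with voom, no filter, other sets of libraries, a replicate block and each library left out.

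Libraries of a group differed beyond counting noise. Deviations of same-numbered KO and WT libraries had correlations of both signs (-0.05, -0.27 and -0.13 in colon and 0.28, -0.05 and -0.39 in LPMC). Those of same-numbered LPMC and colon libraries of a genotype were all above 0 (0.13, 0.36 and 0.25 in KO, 0.18, 0.15 and 0.28 in WT). Libraries of different numbers were not compared in this way, so the values cannot show a pairing, and the labels do not state one.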

Additional observations from a re-analysis of the deposited data

How the results depend on the processing

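All 43 genes were detected in every library. In colon KO against WT, edgeR called 1 gene, DESeq2 33 with 2 members among them, the replicate block 0 and the fit of all 12 libraries 2. In LPMC KO against WT the count was 2, and 4 with no filter, 34 with DESeq2 and 0 with the replicate block. For the difference of the KO effects it was 0, and 3 with DESeq2. These blocks pair KO and WT by a shared number, a pairing that the labels do not state and the correlations did not show, and changed no call of a member. The block within genotype, chosen after seeing the data, changed no call of a member beyond those named in the report. Irgm2 in KO LPMC over colon passed with DESeq2 (adjusted p 0.0282). Over fits that left out a library, all genes called ranged from 0 to 1 in colon KO against WT, 1 to 2 in LPMC KO against WT, and 3647 to 6269 in KO LPMC over colon, where 12 to 20 members were lower and 1 to 2 higher. In WT LPMC over colon 24 to 32 members were lower and 0 to 1 higher. In LPMC KO against WT the type I median ranged from -0.20 to 0.0226 and the gamma median from -0.15 to 0.53, Tap1 from -0.14 to 0.70 and Irgm1 from -0.10 to 0.49. The gamma median of KO LPMC over colon ranged from -0.88 to 0.14. The cause was not tested. No other median and no other named member changed its sign under any alternative.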
